A study of Mus musculus with 8 samples.

Results

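DNA replication and S phase genes were described in 2 subsets of CD8 T cells sorted from mouse liver. The 57 genes were chosen by symbol, from a list of replication, nucleotide supply and G1/S genes, and all 57 were found among the 22609 gene rows of the files. Male C57BL/6J mice, 6 weeks old and with no genetic change named in the labels, had received αCD137 antibody on days 0, 3 and 6, and livers were taken on day 8. CD137 is a costimulatory receptor of T cells. Sorted cells were live and CD45+, had TCRβ and CD8α but no CD4, MHCII or NK1.1, and were KLRG1+ CD127-. They were parted by surface CD11c, an integrin chain best known from dendritic cells. Each subset has 4 libraries, numbered 1 to 4. Both subsets share the antibody treatment, and untreated mice were not analysed here. Whether the libraries of a subset stand for different animals is not in the labels, so each p-value refers to the spread between these libraries, and that spread may be technical.

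Before a cell copies its DNA, the origin recognition complex with Cdc6 and Cdt1 loads the ring-shaped MCM helicase onto origins. At the start of S phase, kinases, Cdc45 and the GINS complex turn the loaded rings into active helicases, and polymerases, the sliding clamp PCNA and Okazaki fragment enzymes follow behind the fork. Many of these genes are transcribed at the G1/S boundary under E2F transcription factors. Antigen-stimulated CD8 T cells divide fast, so transcripts of this machinery are used as a readout of cycling in effector T cells. In sorted bulk RNA, fewer cells in S phase and less transcript per cell cannot be told apart.

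Each library held between 5090345 and 7093163 gene reads, in 10482 to 12581 detected genes. The sort marker Itgax, which encodes CD11c, averaged 243 CPM (counts per 1e+06 gene counts, with TMM scaling) in CD11c+ and 10.1 in CD11c- libraries. The summed CPM of 11 T cell and gate genes was 8257 to 9841 and 8175 to 8909. Summed markers of other liver cells ranged from 93.9 to 366 and from 94.7 to 201 CPM for 10 macrophage genes, and from 33.4 to 83.2 and from 10.7 to 43.0 for 8 dendritic cell genes. They ranged from 0.196 to 26.2 and from 1.86 to 39.1 for 8 hepatocyte genes and from 2.27 to 272 and from 6.16 to 100.4 for 5 neutrophil genes, of which Mpo and Elane were at 0. The B cell list (5 genes) reached at most 14.8 CPM. The NK list (6 genes, Klra8 and Klra4 at 0) reached 80.4 CPM. CD11c+ replicate 3 had the highest macrophage, NK and neutrophil sums. Among these markers of other cells, 1 dendritic cell gene stood at an unadjusted p under 0.05. It was H2-Ab1, an MHC class II gene, at means of 51.3 CPM in CD11c+ and 19.8 in CD11c- libraries, though the sort left out MHCII+ cells. H2-Ab1 made up most of the dendritic cell sum, and no other gene of that list exceeded 4.99 CPM in any library. The part of other cells in the results was not tested.

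The replication genes were expressed in every library, and their level did not part the subsets. None of the 456 member values was at 0, and the lowest was 11 reads. Together the 57 genes took 1.20%, 1.38%, 1.11% and 1.32% of the gene reads in CD11c+ replicates 1 to 4 and 1.17%, 1.32%, 1.17% and 1.35% in CD11c- replicates 1 to 4. The means were 1.25% ± 0.125 and 1.25% ± 0.098 (SD, n = 4 each), so the ranges overlapped. All 57 passed the filter on low counts, against 10073 of the 22609 genes in the files (44.6%).

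A score per library was taken as the mean over the 57 genes of log2(CPM + 1) minus each gene's own mean over the 8 libraries. It was -0.14, 0.07, -0.06 and 0.10 in CD11c+ replicates 1 to 4 and -0.14, 0.10, -0.05 and 0.12 in CD11c- replicates 1 to 4. Libraries 2 and 4 were high and libraries 1 and 3 low in both subsets. The subset means were -0.01 ± 0.11 and 0.01 ± 0.13, a difference of -0.02 beside a range of 0.26 over all 8 libraries. Libraries with the same number differed by at most 0.033 over all 57 genes, and by at most 0.068 over the 36 of them with at least 100 CPM on average. Of the 57 genes, 22, 40, 24 and 39 lay above their own mean in CD11c+ replicates 1 to 4 and 20, 42, 17 and 45 in CD11c- replicates 1 to 4. Detected genes numbered 10482, 10892, 11533 and 12581 in CD11c+ replicates 1 to 4 and 10783, 12322, 12120 and 12294 in CD11c- replicates 1 to 4. Number 1 held the fewest detected genes of each subset and its lowest score over all 57 genes. Over the 36 genes of at least 100 CPM on average, a choice made after seeing the data, number 3 was lowest instead, at -0.12 in CD11c+ and -0.11 in CD11c- beside -0.08 and -0.09 for number 1. Whether the number of detected genes has a part in the score was not tested.

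**Figure D1:**
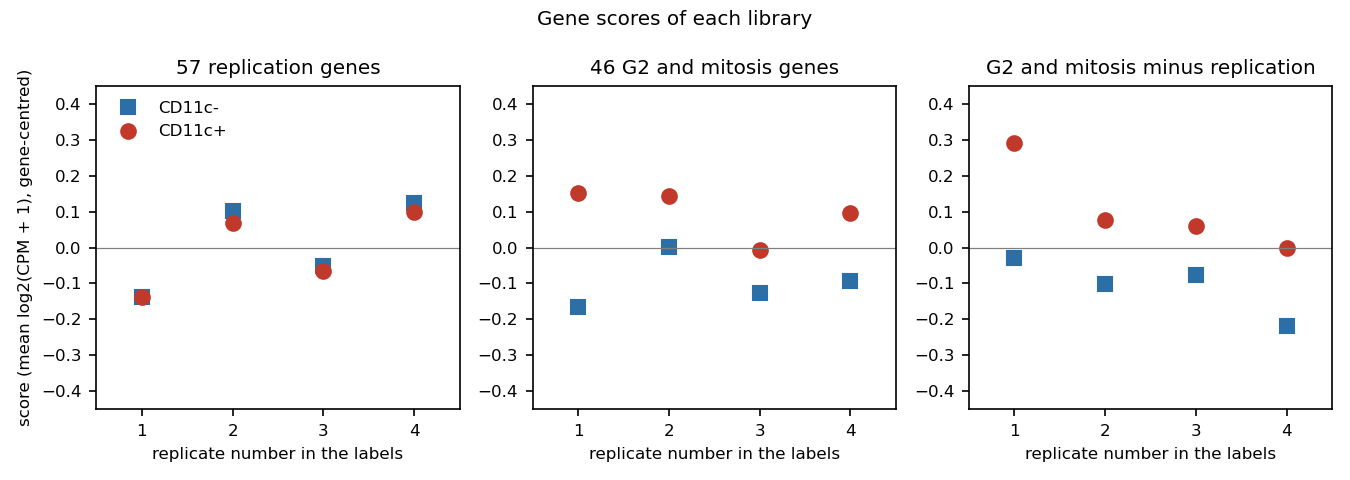
Score of the 57 replication genes and of 46 G2 and mitosis genes, and their difference (mean centred log2(CPM + 1), y axis), in the 4 CD11c+ and 4 CD11c- libraries (x axis, by replicate number), with points for libraries. The replication score lies between -0.14 and 0.12, with libraries 2 and 4 high in both subsets, and the difference is higher in every CD11c+ library (at least -0.0025) than in any CD11c- library (at most -0.03).

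By edgeR's quasi-likelihood test with Benjamini-Hochberg adjustment over 10073 genes, 0 of the 57 members passed an adjusted p of 0.05. Of all tested genes 5 passed (0.0496%). At an unadjusted p under 0.05 stood 2 members (3.51%), both with higher means in CD11c+ cells, beside 473 of all tested genes (4.70%). DESeq2 called 0 members and 32 of all tested genes (0.318%), and had 2 members (3.51%) and 549 of all tested genes (5.45%) at an unadjusted p under 0.05. Limma voom with quality weights called 0 members and 19 of all tested genes (0.189%), with 3 members (5.26%) and 536 of all tested genes (5.32%) at an unadjusted p under 0.05. The share of members at an unadjusted p under 0.05 is near or under the background with each of the 3 tools.

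The log2 differences, CD11c+ minus CD11c-, had a median of 0.02 over the members and 0.01 over all tested genes. Over the members they ran from -0.58 (Exo1) to 0.37 (E2f1). Of the 57, 32 were positive (56.1%, beside 51.7% of all tested genes), 25 negative and 48 within 0.2 of 0. The number of positive differences ran from 21 to 34 with 1 library left out, at 21 without CD11c+ replicate 2 and 24 without CD11c- replicate 1 or 3. The adjusted p-values of edgeR ran from 0.990 to 0.999. For 45 members the 95% interval of the difference stayed within 1.5-fold in either direction, and for 54 within 2-fold. Without CD11c+ replicate 3, the library with the highest macrophage and neutrophil sums, the members' median was -0.0088, with 0 passing and 2 at an unadjusted p under 0.05. The median SE was 0.16 for members and 0.27 for all tested genes. A missed threshold does not show that a gene was equal in both subsets, and these intervals give the size of difference that each gene's libraries allow.

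**Figure D2:**
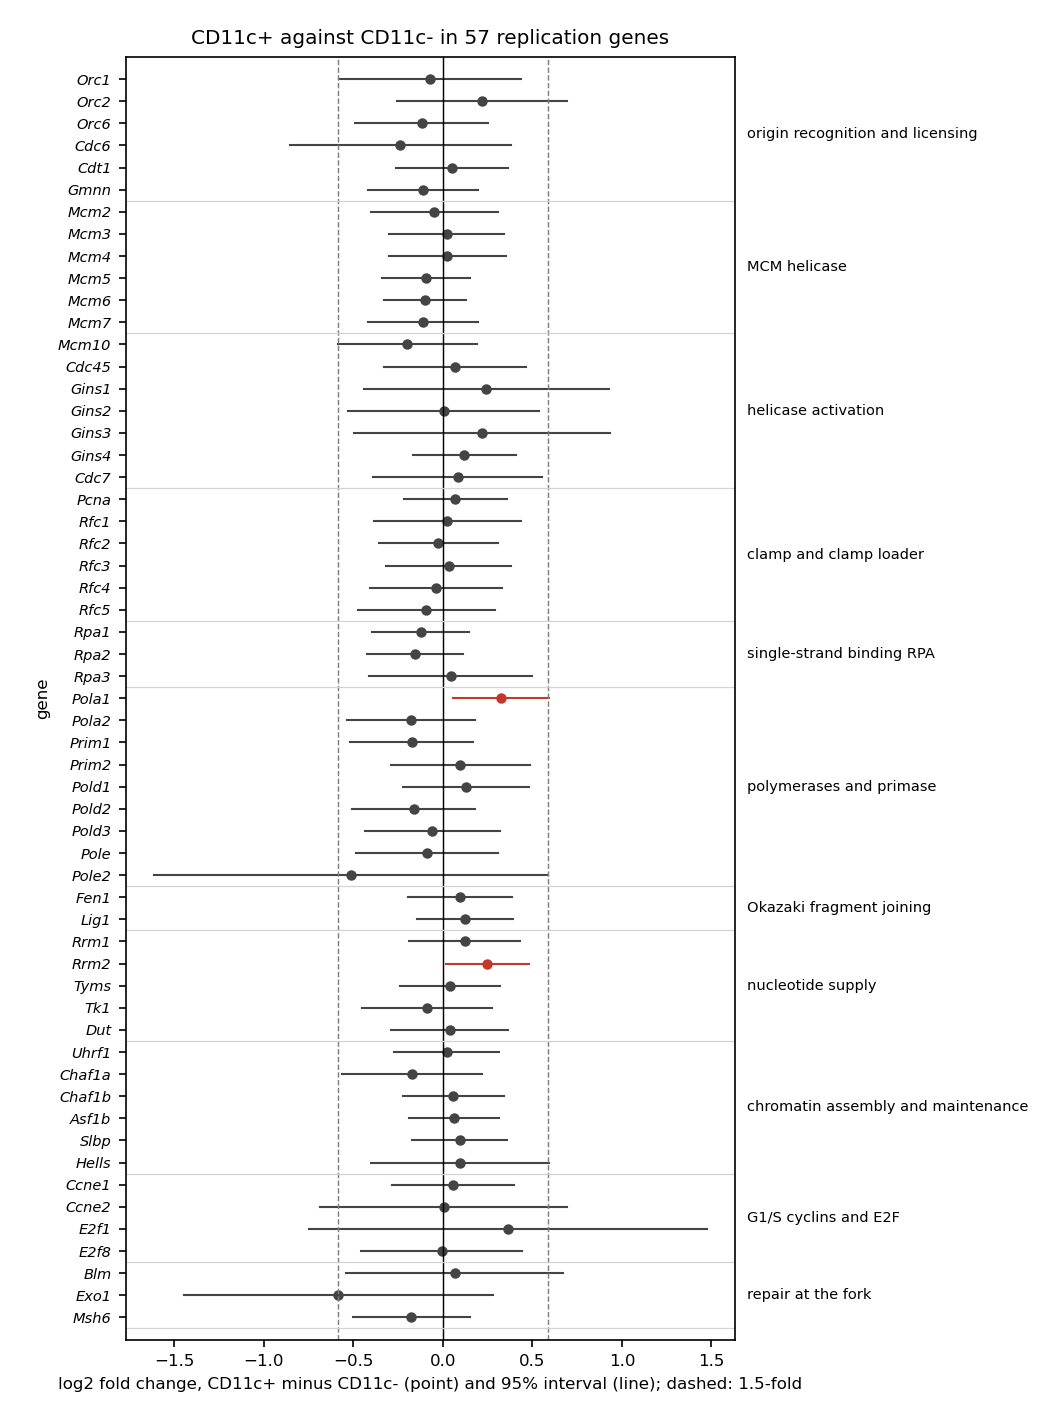
log2 difference between CD11c+ and CD11c- libraries for the 57 members (x axis), with points for edgeR estimates and bars for 95% intervals, grouped by role (y axis), red where the unadjusted p is under 0.05 and with dashed lines at 1.5-fold. The intervals of Pola1 (0.05 to 0.59) and Rrm2 (0.02 to 0.48) lie above 0 without adjustment, and no member passed the adjusted threshold.

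Of 47 members with an entry in the RefSeq promoter table (build GRCm38.p6, windows of 300 bases from 250 before to 50 after the gene start), 17 (36.2%) held at least 1 of the letters TTTGGCGC, TTTCCCGC, TTTGCCGC or TTTCGCGC on either strand, the core bound by E2F factors. Of the 27025 genes with an entry, 704 (2.61%) did, and of 40 G2 and mitosis genes with an entry 4 (10.0%) did. The forms can overlap each other. CCAAT, the box bound by NF-Y, was found on either strand in 29 of the 47 (61.7%), in 41.1% of all genes in the table and in 31 of the 40 G2 and mitosis genes (77.5%). A match describes letters and not a bound site. By role, the E2F letters were in 3 of 5 licensing genes (Orc1, Cdc6, Cdt1), 4 of 5 MCM genes (Mcm3, Mcm5, Mcm6, Mcm7) and 4 of 7 polymerase genes (Pola1, Pold1, Pold3, Pole2). Also with them were Gins3, Rfc3, Lig1, Uhrf1, Hells and Msh6. The windows of the 3 RPA genes, the 5 nucleotide supply genes and the 3 cyclin and E2F genes listed did not hold them. Only the exact letters above were searched, and only in these windows. A missing match therefore does not show that a gene lacks an E2F site. Gmnn, Mcm4, Gins1, Gins2, Gins4, Rfc2, Prim2, Pole, Ccne2 and Exo1 had no entry.

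The sequences below are those of genes described further on, written 5′ to 3′ on the gene's strand with E2F core matches in capitals. For Mcm6, 1 of the highest members per kb of transcript, the 200 bases just before the gene start lie at chr1:128359706-128359905 (minus strand) and hold 3 matches, beginning 110, 106 and 47 bases before the start, of which the first 2 overlap. For Rrm2, a member whose subsets did not overlap, the same stretch lies at chr12:24708054-24708253 (plus strand) and holds none. Both stretches lie upstream of the RefSeq gene. Stretches of 30 bases are given for the licensing genes Orc1, at chr4:108579418-108579447 (plus strand), and Cdc6, at chr11:98908004-98908033 (plus strand). Others are for Mcm5, at chr8:75109347-75109376 (plus strand), with 2 overlapping matches, and for Pola1, the other member without overlap, at chrX:93632273-93632302 (minus strand). The stretches of Orc1, Cdc6 and Pola1 lie inside the RefSeq gene, before the start used for the window, and that of Mcm5 lies upstream of the gene.
Mcm6: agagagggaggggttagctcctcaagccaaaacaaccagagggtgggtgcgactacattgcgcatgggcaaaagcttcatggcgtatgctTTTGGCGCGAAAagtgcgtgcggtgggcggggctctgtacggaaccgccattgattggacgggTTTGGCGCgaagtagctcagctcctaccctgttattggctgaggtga
Rrm2: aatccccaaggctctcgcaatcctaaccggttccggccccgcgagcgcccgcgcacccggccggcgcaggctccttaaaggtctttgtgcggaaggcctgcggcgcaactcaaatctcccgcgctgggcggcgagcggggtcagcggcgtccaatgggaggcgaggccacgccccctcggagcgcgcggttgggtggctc
Orc1: cggttagtgGCGCGAAAagttttctcctgt
Cdc6: cggtggagaGCGGGAAAtcgcctggggtct
Mcm5: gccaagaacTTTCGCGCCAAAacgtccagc
Pola1: catcacaggGCGCCAAAtgcactcccgcgg

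Among the origin recognition and licensing genes, Cdt1, which helps load the MCM ring, had the most reads of the group, a CPM that is not corrected for length. It stood at 168, 166, 181 and 165 in the CD11c+ libraries and 131, 172, 153 and 202 in the CD11c- libraries. Its 2 ranges overlapped, and the log2 difference was 0.05 (SE 0.14). Orc2, a subunit of the origin recognition complex, was at 46.5, 65.0, 53.1 and 57.4 in the CD11c+ libraries and 37.1, 63.7, 50.8 and 38.9 in the CD11c- libraries, with a log2 difference of 0.22 (SE 0.22, 95% interval -0.26 to 0.69). Orc1, an ATPase subunit of that complex, ran from 20.6 to 28.0 CPM in CD11c+ and from 23.6 to 28.2 in CD11c- libraries, a log2 difference of -0.07 (SE 0.24). For Orc6, the smallest subunit of the complex, the ranges were 71.0 to 107 and 89.5 to 118 CPM, and the log2 difference was -0.12 (SE 0.17). Gmnn, which encodes geminin, the inhibitor of Cdt1, lay at 115 to 139.99 in CD11c+ and 117 to 159 CPM in CD11c- libraries, with a log2 difference of -0.11 (SE 0.14). In each of these 3 genes the subsets overlapped. Cdc6, the ATPase that brings the ring to origins, showed the order of the libraries most plainly among these, and is named after its values were seen. It was at 60.2, 98.5, 61.1 and 101 in the CD11c+ libraries and 49.8, 111, 82.6 and 135 in the CD11c- libraries, so that libraries 2 and 4 stood above 1 and 3 in both subsets. Its log2 difference was -0.24 (SE 0.29, 95% interval -0.86 to 0.38).

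The 6 MCM genes encode the subunits of the helicase ring. Mcm6 was at 1164, 1184, 884 and 1136 in the CD11c+ libraries and 1132, 1267, 1066 and 1213 in the CD11c- libraries. CD11c+ replicate 3 was lowest of all 8, and the other 7 lay within 1066 to 1267. Its means were 1092 ± 140.4 against 1169.6 ± 88.2 CPM and the log2 difference was -0.10 (SE 0.11, 95% interval -0.33 to 0.13). Mcm2, the subunit that also binds histones, ran from 436 to 731 CPM in CD11c+ and from 527 to 761 in CD11c- libraries, a log2 difference of -0.05 (SE 0.16). For Mcm3 the ranges were 616 to 893 and 646 to 909.7 CPM, and the log2 difference was 0.02 (SE 0.15). Mcm4 lay at 381 to 703 in CD11c+ and 521 to 566 CPM in CD11c- libraries, with a log2 difference of 0.03 (SE 0.15). The subsets overlapped for each of these. Mcm5 ran from 676 to 866 CPM in CD11c+ and from 744 to 951 in CD11c- libraries, a log2 difference of -0.09 (SE 0.11). For Mcm7 the ranges were 249 to 339 and 254 to 359.8 CPM, and the log2 difference was -0.11 (SE 0.14). CD11c+ replicate 3 was low for the ring as a whole, with a mean centred log2 level over the 6 genes of -0.35, beside -0.13 in CD11c- replicate 3. The 95% interval stayed within 1.5-fold for all 6 subunits.

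Of the 7 genes of helicase activation, 6 had positive differences, with a median of 0.08. Cdc45, which joins the ring in the active helicase, was at 203, 132, 123 and 166 in the CD11c+ libraries and 119, 157, 140.3 and 180.1 in the CD11c- libraries. The ranges overlapped and the log2 difference was 0.07 (SE 0.18). Mcm10, which acts when the helicase fires, was at 81.9, 91.0, 61.5 and 108 in the CD11c+ libraries and 94.3, 104, 90.1 and 105 in the CD11c- libraries. Its difference of -0.20 (SE 0.18, 95% interval -0.59 to 0.19) was the negative one, with CD11c+ replicate 3 lowest. The 4 GINS subunits bridge Cdc45 and the ring. Gins1 lay at 21.5 to 37.2 in CD11c+ and 13.4 to 34.2 CPM in CD11c- libraries, with a log2 difference of 0.24 (SE 0.32). Gins2 ran from 43.4 to 74.7 CPM in CD11c+ and from 44.7 to 88.3 in CD11c- libraries, a log2 difference of 0.0038 (SE 0.25). CD11c- replicate 1 held the lowest Gins1 value. For Gins3 the ranges were 15.3 to 38.2 and 15.6 to 31.7 CPM, and the log2 difference was 0.22 (SE 0.33). Gins4 lay at 105 to 114 in CD11c+ and 93.7 to 109.9 CPM in CD11c- libraries, with a log2 difference of 0.12 (SE 0.13). Cdc7, the kinase that phosphorylates the loaded ring, ran from 46.9 to 83.2 CPM in CD11c+ and from 45.7 to 72.2 in CD11c- libraries, a log2 difference of 0.08 (SE 0.22). The mean centred log2 level of the group was lowest in CD11c- replicate 1, at -0.42.

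Pcna, the sliding clamp, was at 189, 155, 163 and 187 in the CD11c+ libraries and 185, 144, 155 and 178 in the CD11c- libraries. Here libraries 1 and 4 were high and 2 and 3 low in both subsets, an order unlike that of the score. The log2 difference was 0.07 (SE 0.13, 95% interval -0.22 to 0.36). Rfc2, a subunit of the clamp loader, was at 199, 329, 258 and 256 in the CD11c+ libraries and 279.8, 261, 225 and 294 in the CD11c- libraries, with a log2 difference of -0.02 (SE 0.15). For Rfc1, the large loader subunit, the ranges were 58.5 to 86.4 and 60.0 to 82.1 CPM, and the log2 difference was 0.03 (SE 0.19). Rfc3, a small one, lay at 84.9 to 108 in CD11c+ and 75.9 to 113 CPM in CD11c- libraries, with a log2 difference of 0.03 (SE 0.16). The remaining small subunits overlapped between subsets likewise. Rfc4 ran from 87.2 to 140.2 CPM in CD11c+ and from 104 to 139.7 in CD11c- libraries, a log2 difference of -0.04 (SE 0.17). For Rfc5 the ranges were 93.3 to 144 and 96.9 to 148 CPM, and the log2 difference was -0.09 (SE 0.18).

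RPA coats single-stranded DNA at the fork. Its large subunit Rpa1 was at 459.7, 668, 479.97 and 499 in the CD11c+ libraries and 627, 565, 543 and 563 in the CD11c- libraries, and the log2 difference was -0.12 (SE 0.12). Rpa2 was at 368, 442, 386 and 376 in the CD11c+ libraries and 352, 464, 432 and 502 in the CD11c- libraries, and the log2 difference was -0.15 (SE 0.12, 95% interval -0.42 to 0.11). In both genes the 2 subsets overlapped. Without CD11c+ replicate 2, Rpa1 was lower in CD11c+ without overlap, with a log2 difference of -0.27. It was then the only member at an unadjusted p under 0.05 by edgeR (1.75% of members, beside 5.02% of all tested genes). The third member under that threshold with limma voom was Rpa2. Rpa3, the small subunit, lay at 36.3 to 66.6 in CD11c+ and 47.8 to 54.2 CPM in CD11c- libraries, with a log2 difference of 0.04 (SE 0.21).

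Pola1, the catalytic subunit of the polymerase that starts each new strand, was at 142, 167, 160.2 and 152 in the CD11c+ libraries and 118, 136, 118 and 123 in the CD11c- libraries. The lowest CD11c+ library lay above the highest CD11c- library. The means were 155 ± 10.7 against 124 ± 8.67 CPM (SD, n = 4 each), a 1.25-fold difference, and the log2 difference was 0.32 (SE 0.12, 95% interval 0.05 to 0.59). In edgeR's quasi-likelihood test the unadjusted p was 0.0223 and the adjusted p 0.990, so Pola1 did not pass. Over 17 alternative fits the unadjusted p ran from 0.0118 to 0.0814 and stayed under 0.05 in 13. It exceeded 0.05 without the 3 libraries of fewest detected genes (0.0814), when CD11c+ replicate 2 was left out (0.0594), or CD11c- replicate 1 (0.0536), and was 0.0671 when CD11c- replicate 3 was.

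The partners of Pola1 in the same complex overlapped between the subsets. Pola2, its accessory subunit, ran from 110.1 to 172 CPM in CD11c+ and from 154 to 209 in CD11c- libraries, a log2 difference of -0.18 (SE 0.17). For Prim1, the catalytic primase subunit, the ranges were 107 to 131 and 110.2 to 173 CPM, and the log2 difference was -0.17 (SE 0.16). Prim2, the large primase subunit, lay at 60.8 to 82.6 in CD11c+ and 53.1 to 72.7 CPM in CD11c- libraries, with a log2 difference of 0.10 (SE 0.18). Of these differences, 2 were negative and 1 was positive. Pold1, the catalytic subunit of the main lagging-strand polymerase, was at 327, 312, 247 and 311 in the CD11c+ libraries and 247, 296, 203 and 348 in the CD11c- libraries, with a log2 difference of 0.13 (SE 0.16). Pold2, an accessory subunit, ran from 115 to 169 CPM in CD11c+ and from 132 to 180.3 in CD11c- libraries, a log2 difference of -0.16 (SE 0.16). For Pold3, another, the ranges were 73.9 to 98.6 and 70.9 to 104 CPM, and the log2 difference was -0.06 (SE 0.17). Pole, the catalytic subunit of the leading-strand polymerase, lay at 66.7 to 96.8 in CD11c+ and 69.6 to 105 CPM in CD11c- libraries, with a log2 difference of -0.09 (SE 0.18). Pole2, the partner subunit of Pole, was at 2.74, 22.5, 33.1 and 32.9 in the CD11c+ libraries and 26.6, 37.7, 31.6 and 34.7 in the CD11c- libraries and is named after its values were seen. CD11c+ replicate 1 was far under the other 7, and the log2 difference was -0.51 (SE 0.51, 95% interval -1.62 to 0.59). Without that library it was -0.15. The mean centred log2 level over the 9 polymerase genes was -0.37 in that library, and without Pole2, left out after seeing the data, it was -0.083 there over the other 8 genes.

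Fen1, the flap nuclease that trims Okazaki fragments, was at 393, 298, 302 and 329 in the CD11c+ libraries and 257, 333, 291 and 354 in the CD11c- libraries, with a log2 difference of 0.10 (SE 0.13). Lig1, the ligase that seals them, was at 306, 325, 329 and 331 in the CD11c+ libraries and 235, 333, 289.9 and 326 in the CD11c- libraries, with a difference of 0.12 (SE 0.12). In both genes CD11c- replicate 1 was the lowest library and the subsets overlapped.

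Rrm2, the regulated subunit of ribonucleotide reductase, which makes deoxynucleotides, was at 613, 613, 598 and 652 in the CD11c+ libraries and 445, 553, 492 and 593 in the CD11c- libraries. The lowest CD11c+ library stood just above the highest CD11c- library. The means were 619 ± 23.0 against 521 ± 65.2 CPM (SD, n = 4 each), a 1.19-fold difference, and the log2 difference was 0.25 (SE 0.11, 95% interval 0.02 to 0.48). The unadjusted p was 0.0367 and the adjusted p 0.991 by edgeR's quasi-likelihood test, so Rrm2 did not pass. Over the 17 alternative fits its unadjusted p stayed under 0.05 in 10 and ran from 0.0155 to 0.206, highest without the 3 libraries in which the fewest genes were detected and 0.136 without CD11c- replicate 1. Rrm1, the large subunit of the same enzyme, was at 552, 802, 488 and 641 in the CD11c+ libraries and 526, 648, 542 and 568 in the CD11c- libraries. Its 2 subsets overlapped, and the log2 difference was 0.12 (SE 0.14, 95% interval -0.19 to 0.43). Tyms, thymidylate synthase, ran from 146 to 194 CPM in CD11c+ and from 153 to 179.5 in CD11c- libraries, a log2 difference of 0.04 (SE 0.13). For Tk1, the thymidine kinase of the salvage route, the ranges were 98.1 to 148 and 112 to 162 CPM, and the log2 difference was -0.09 (SE 0.17). Dut, the dUTPase that keeps uracil out of DNA, lay at 324 to 507 in CD11c+ and 328 to 459 CPM in CD11c- libraries, with a log2 difference of 0.04 (SE 0.15). In none of these 3 were the subsets apart.

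Of the chromatin genes, Uhrf1, which guides maintenance of DNA methylation behind the fork, was at 330.2, 390.4, 272 and 404 in the CD11c+ libraries and 344, 327, 319 and 386 in the CD11c- libraries, with a log2 difference of 0.02 (SE 0.14). Chaf1a, the large subunit of the histone chaperone CAF-1, was at 166, 122, 100.5 and 181 in the CD11c+ libraries and 164, 143, 159.5 and 176 in the CD11c- libraries. Its difference was -0.17 (SE 0.18, 95% interval -0.56 to 0.22), with the lowest values in CD11c+ replicates 2 and 3. Chaf1b, the middle subunit of CAF-1, ran from 140.4 to 164 CPM in CD11c+ and from 126 to 166 in CD11c- libraries, a log2 difference of 0.06 (SE 0.13). For Asf1b, a histone chaperone, the ranges were 281 to 369 and 286 to 342 CPM, and the log2 difference was 0.06 (SE 0.12). Both overlapped between subsets. Slbp, which binds the stem-loop of histone messages, lay at 248 to 347 in CD11c+ and 259.9 to 296 CPM in CD11c- libraries, with a log2 difference of 0.09 (SE 0.12). Hells, a chromatin remodeller, ran from 75.1 to 155 CPM in CD11c+ and from 78.9 to 134 in CD11c- libraries, a log2 difference of 0.09 (SE 0.23).

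Ccne1, which encodes the G1/S cyclin E1, was at 108, 156, 119 and 139 in the CD11c+ libraries and 124, 129.7, 105 and 143 in the CD11c- libraries, with a log2 difference of 0.06 (SE 0.16). E2f1, an activating E2F factor, was at 13.1, 8.38, 10.5 and 15.4 in the CD11c+ libraries and 2.04, 11.6, 11.3 and 11.8 in the CD11c- libraries. CD11c- replicate 1 stood far under the other 7, and the difference of 0.37 (SE 0.51, 95% interval -0.75 to 1.48) was 0.03 without it. For Ccne2, the other E-type cyclin, the ranges were 25.8 to 60.0 and 23.4 to 60.8 CPM, and the log2 difference was 0.0034 (SE 0.32). E2f8, a repressive E2F factor, lay at 65.0 to 99.5 in CD11c+ and 64.5 to 114 CPM in CD11c- libraries, with a log2 difference of -0.01 (SE 0.21). Exo1, a nuclease of mismatch repair and replication, was at 43.4, 7.86, 31.9 and 44.1 in the CD11c+ libraries and 40.8, 56.6, 44.8 and 48.6 in the CD11c- libraries. CD11c+ replicate 2 was lowest, and the difference of -0.58 (SE 0.40, 95% interval -1.45 to 0.28) was -0.27 without that library. Msh6, a mismatch recognition subunit, was at 94.8, 98.1, 82.8 and 98.4 in the CD11c+ libraries and 89.9, 117, 96.7 and 119 in the CD11c- libraries, with a difference of -0.18 (SE 0.15). Blm, a helicase that resolves recombination intermediates, ran from 25.3 to 45.9 CPM in CD11c+ and from 20.6 to 42.9 in CD11c- libraries, a log2 difference of 0.07 (SE 0.28).

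**Figure D3:**
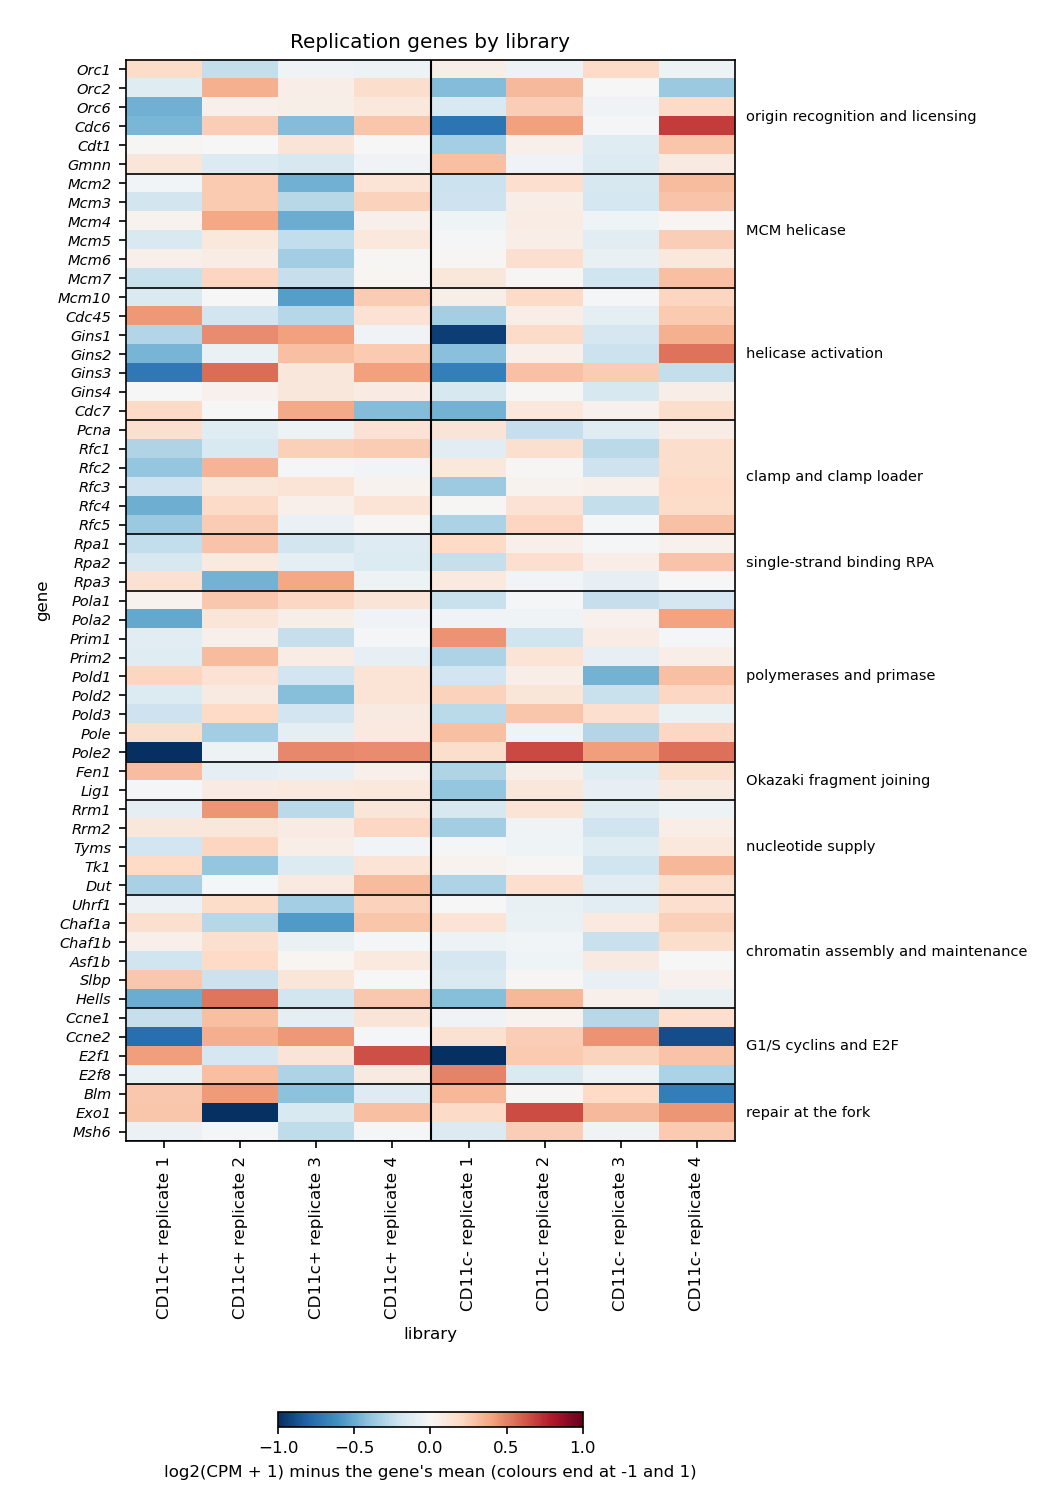
Centred log2(CPM + 1) of the 57 members (rows, by role) in the 8 libraries (columns), with the colour scale ending at -1 and 1. Libraries 2 and 4 of both subsets hold 39 to 45 members above their own mean and libraries 1 and 3 hold 17 to 24.

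**Figure D4:**
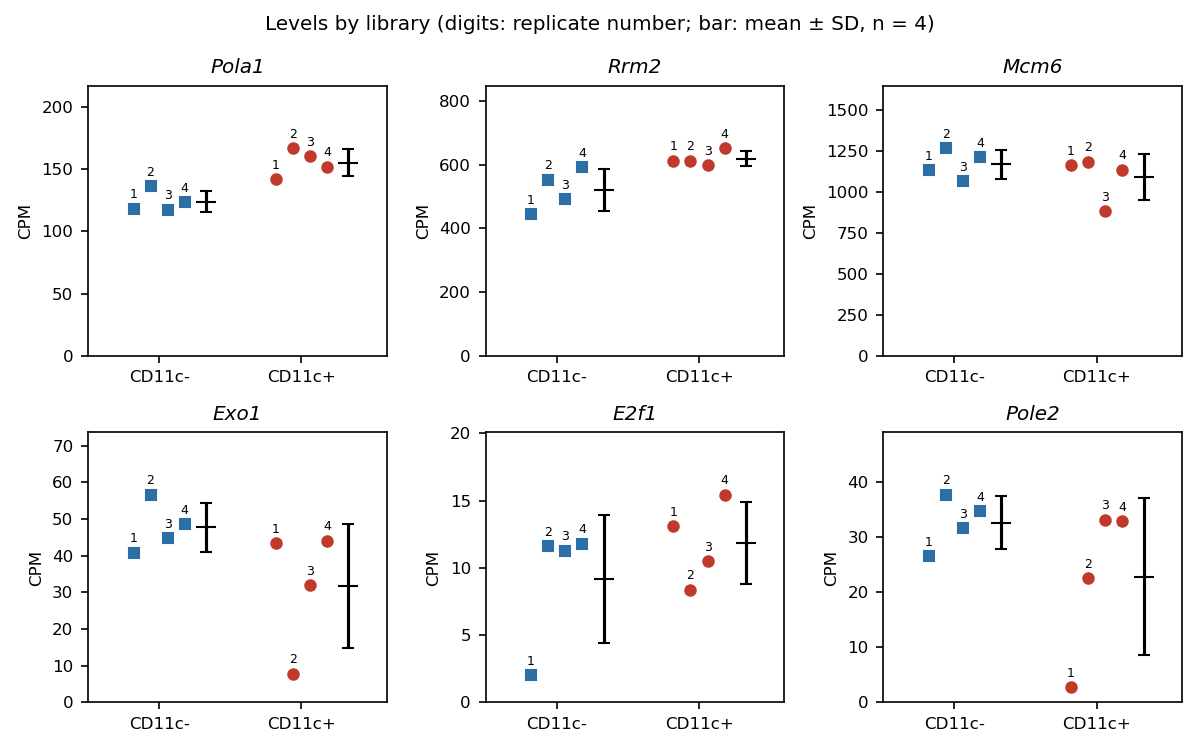
CPM of members described above (1 panel each, y axis from 0) in the 4 CD11c+ and 4 CD11c- libraries, with numbered points for libraries and bars for mean ± SD. The low points are CD11c+ replicate 2 for Exo1, CD11c- replicate 1 for E2f1 and CD11c+ replicate 1 for Pole2. Pola1 (142 to 167 against 118 to 136) and Rrm2 (598 to 652 against 445 to 593) do not overlap between subsets.

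Of the 57 members 2 (3.51%) had no overlap between the subsets in CPM, beside 347 of all tested genes (3.44%). After the mean of the other members was subtracted in each library, the same 2 members, Pola1 and Rrm2, had none, both higher in CD11c+, beside 286 of all tested genes (2.84%). The share of members near the background says nothing particular of the list. Without the 3 libraries of fewest detected genes, which leaves 2 CD11c+ and 3 CD11c- libraries, 6 members (10.5%) did not overlap in CPM, beside 21.1% of all tested genes, and 12 (21.1%) departed from the score, beside 19.5% of all tested genes. The member shares there are thus under or near the background for so few libraries.

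Per kilobase of transcript the levels spanned a 68.0-fold range. In CPM per kb of the longest protein-coding transcript (GENCODE M21, GRCm38), over 8 libraries, Rrm2 stood at 259.9 ± 31.6, Mcm6 at 259.6 ± 26.7 and Mcm3 at 249. Mcm5 (239), Rpa2 (229), Dut (211) and Mcm2 (184) followed, and Exo1 (5.10) and E2f1 (3.82) were lowest. By subset, Rrm2 was first in CD11c+ libraries, at 282 before Mcm3 and Mcm6 at 251 each, and in CD11c- libraries stood at 238, after Mcm6 (269), Mcm3 (247), Mcm5 (247) and Rpa2 (241). In each of the 56 pairs of neighbours in this order the ranges over libraries overlapped. The median level by role was highest for the MCM helicase, at 211 CPM per kb, and then 149 for nucleotide supply, 116 for Okazaki fragment joining, 108 for RPA and 86.7 for chromatin genes. It was 63.7 for the clamp and its loader, 43.7 for licensing, 33.7 for polymerases and primase, 20.8 for helicase activation, 18.9 for cyclins and E2F and 7.34 for repair. Lengths are of the longest transcript and of a later annotation than the counting build. Which transcript forms the cells express was not measured, so levels, their order and the role medians rest on those choices.

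**Figure D5:**
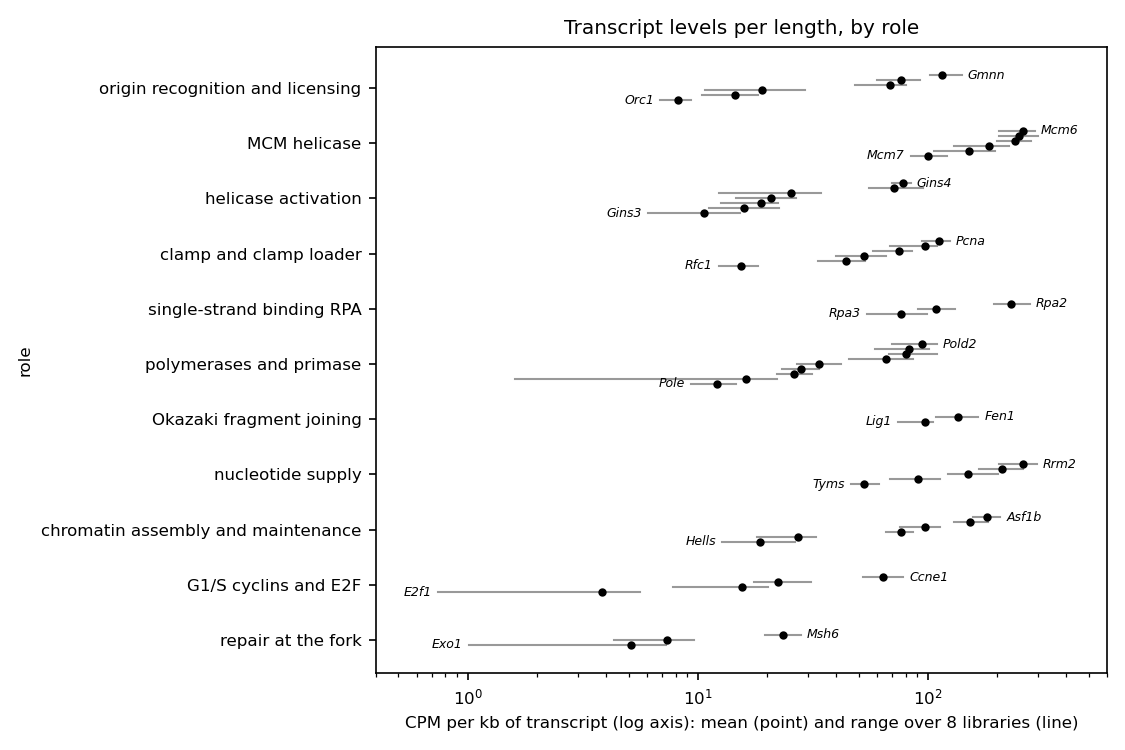
Level of the 57 members in CPM per kb of transcript (log axis), by role, with points for means over 8 libraries and lines for the lowest to the highest library. Rrm2 and Mcm6 (259.9 and 259.6) lie at the top and E2f1 (3.82) at the bottom.

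A second list held 79 other genes of the pathway, of which 78 matched and were tested. Of these 0 passed over all genes by edgeR, and 0 by DESeq2 and by limma voom. At an unadjusted p under 0.05 stood 5 of the 78 (6.41%, background 4.70%), all with positive differences. With 1 library left out the count was 1 of the 78 without CD11c- replicate 4, beside 3.85% of all tested genes. It was 4 without CD11c- replicate 2, beside 4.07%, and 2 or 3 without any other, beside 3.53% to 5.74%. Between the subsets, 2 of the 78 (2.56%), Ccna2 and Rb1, had no overlap in CPM, beside 3.44% of all tested genes. Ccna2, the S phase cyclin A2, was at 681, 689, 636 and 673 in the CD11c+ libraries and 559, 589.9, 604 and 547 in the CD11c- libraries, without overlap, and its difference was 0.22 (SE 0.09). Dbf4, the activator of Cdc7, averaged 102 ± 12.8 against 79.3 ± 6.58 CPM, a difference of 0.36 (SE 0.15), and Ccnd3, the cyclin D3 of G1, 779.5 ± 86.1 against 655 ± 60.2 CPM, a difference of 0.25 (SE 0.11). Rb1, the retinoblastoma protein that restrains E2F, averaged 23.6 ± 9.24 against 14.2 ± 2.86 CPM without overlap, a difference of 0.74 (SE 0.33). For Rb1, CD11c+ replicate 3 stood at 37.2 CPM and the other CD11c+ libraries at 17.4 to 21.1. Rrm2b, a reductase subunit used outside S phase, averaged 23.2 ± 12.3 against 10.4 ± 1.75 CPM, a difference of 1.15 (SE 0.43). Its CD11c+ libraries were at 34.8, 30.4, 20.5 and 7.17 CPM, and its CD11c- libraries ran from 8.17 to 12.2. The subsets thus overlapped, with CD11c+ replicate 4 the lowest of all 8 libraries. The median over the 78 was 0.01, with 43 positive (55.1%, beside 51.7% of all tested genes) and 35 negative.

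For the 46 G2 and mitosis genes, measured in the same libraries, the values lay elsewhere. Their score was 0.15, 0.14, -0.01 and 0.10 in CD11c+ replicates 1 to 4 and -0.17, 0.00049, -0.13 and -0.09 in CD11c- replicates 1 to 4. The median log2 difference was 0.18, and 42 of 46 (91.3%) were positive, beside 0.02 and 32 of 57 (56.1%) for the replication genes. Of all tested genes 51.7% were positive. Genes of a list are not independent within a library, so 42 of 46 does not count separate results. The score itself overlapped between the subsets. Between libraries with the same number it was higher in CD11c+ each time, by 0.12 to 0.32, though the labels do not pair the numbers. Of the 46 genes, 1 (2.17%, background 3.44%) had no overlap in CPM. By edgeR 0 of the 46 passed, with the lowest adjusted p at 0.668, and 9 (19.6%, background 4.70%) stood at an unadjusted p under 0.05. That count ran from 2 (4.35%, beside 3.53% of all tested genes), without CD11c- replicate 1, to 12 (26.1%, beside 5.74%), without CD11c+ replicate 3. It was 4 (8.70%) without CD11c+ replicate 1 or 2, beside 5.12% and 5.02%, and 5 (10.9%, beside 3.85%) without CD11c- replicate 4. Without the 3 libraries of fewest detected genes it was 3 (6.52%, beside 6.42%), near the background. DESeq2 and limma voom also called 0 of the 46, with 9 (19.6%) and 5 (10.9%) at an unadjusted p under 0.05, beside 5.45% and 5.32% of all tested genes. Subtracting the replication score from the G2 and mitosis score in each library gave 0.29, 0.08, 0.06 and -0.0025 in CD11c+ replicates 1 to 4 and -0.03, -0.10, -0.08 and -0.22 in CD11c- replicates 1 to 4. These did not overlap, with means of 0.11 ± 0.13 and -0.11 ± 0.08, a difference of 0.21. With the 36 replication genes of at least 100 CPM on average in place of all 57, a choice made after seeing the data, the difference was 0.20, again without overlap (lowest CD11c+ 0.01, highest CD11c- -0.01). The difference of the 2 scores was not given a p, since both lists were chosen with results of these libraries known.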

How the data were processed

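RNA was measured in 8 libraries, 4 of CD11c+ and 4 of CD11c- KLRG1+CD127- CD8 T cells, made with a modified SMART-seq2 protocol and read as 50 bp single reads per the labels. As deposited by the authors, the values are raw counts by gene symbol with no normalization. The submitters' processing notes name bcl2fastq, TopHat2 2.0.8b, HTSeq and build mm9. Which annotation and strand setting were used is not given in the sources, so a gene and its antisense or overlapping neighbour may share reads. The 5 summary rows of each file stayed out of library sizes. Reads in no gene made up 65.1% ± 1.66 of uniquely placed reads, and alignments at more than 1 place 52.0% ± 1.07 of all rows, so members with near-identical copies have uncertain levels.

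Counts were fitted over all genes with edgeR 4.0.16 (filterByExpr, TMM, glmQLFit and glmQLFTest) in R 4.3.3, taking CD11c+ minus CD11c-. P-values were adjusted by Benjamini-Hochberg over 10073 genes, with a threshold of 0.05. Intervals use the SE and the fit's total degrees of freedom (12.5). Gene read totals ran from 5090345 to 7093163. Every pair within a subset differed by more than read sampling (lowest chi-square per degree of freedom 9.43), so these totals alone do not set the precision. The score used a pseudocount of 1 CPM. Values in every library were given, for each of 11 roles, for the member of smallest p and that of highest CPM, and for each member with an unadjusted p under 0.05 or departing from the score. Of other pathway genes, those with an unadjusted p under 0.05 were named. Members and lists were chosen with earlier results of these data known. The fit was tested on simulated data.

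The alternatives tried were scaling by RLE or by library size alone, no filter, a filter at 5 CPM in 4 libraries, leaving out each library or the 3 of fewest detected genes, a replicate block, DESeq2 1.42.0, limma 3.58.1 voom, legacy=FALSE in edgeR, and, for the score, a pseudocount of 0.5 CPM and a median. Restricting the score to members of at least 100 CPM was added after seeing the data.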

Additional observations from a re-analysis of the deposited data

Results flagged for a closer look

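In 5 of 122 groups of 4 libraries checked, 1 library stood apart from the other 3 by more than Dixon's test at 95% allows, and chance alone flags about 5% of groups. Orc6, an origin recognition subunit, was at 71.0 CPM in CD11c+ replicate 1 and at 103 to 107 in the other CD11c+ libraries. Cdt1 was at 181 CPM in CD11c+ replicate 3 and at 165 to 168 in the others. Mcm6 was at 884 CPM in CD11c+ replicate 3, with the others at 1136 to 1184. Pola2, the partner subunit of Pola1, was at 209 CPM in CD11c- replicate 4 and at 154 to 163 in the others. E2f1 was at 2.04 CPM in CD11c- replicate 1 and at 11.3 to 11.8 in the others.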

How the results depend on the processing

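The count of members called was 0 under each of 17 alternative fits. The members' median log2 difference moved by less than the spread under every alternative, from -0.05 to 0.05 with 1 library left out, and the score difference ran from -0.08 to 0.02 there. Over all genes 5 were called, and 12 with no filter, 8 with at least 5 CPM in 4 libraries, 11 without the 3 libraries of fewest detected genes, 11 with legacy=FALSE, 32 with DESeq2, 19 with limma voom and 1 to 5 with 1 library left out. Members with an unadjusted p under 0.05 numbered 2 (3.51%, beside 4.70% of all tested genes). They numbered 1 with no filter (1.75%, beside 5.03%), 3 with limma voom (5.26%, beside 5.32%) and 0 without those 3 libraries (beside 6.42%). With 1 library left out they numbered 0 to 2 (at most 3.51%, beside 3.53% to 5.74%). The 0 came without CD11c- replicate 1 or CD11c- replicate 3. Members without overlap numbered 2 (3.51%, beside 3.44% of all tested genes). They numbered 1 with RLE factors (1.75%, beside 3.42%) and 1 with no filter (1.75%, beside 2.76%). Without the 3 libraries they numbered 6 (10.5%, beside 21.1%), and with 1 left out 1 to 2 (1.75% to 3.51%, beside 5.57% to 7.34%). Members departing from the score numbered 2, and 12 without the 3 libraries (21.1%, beside 19.5% of all tested genes) and 2 to 4 with 1 left out (3.51% to 7.02%, beside 4.92% to 6.67%). The G2 and mitosis median of 0.18 ran from 0.13 to 0.25 with 1 left out. Signs turned without the 3 libraries for Cdt1 (-0.027), Cdc45 (-0.15), Pold1 (-0.027), Fen1 (-0.056), Rrm1 (-0.061) and Uhrf1 (-0.034), and with limma voom for Rfc2 (0.0058). With 1 library left out they turned for Cdt1 (-0.054 to 0.15), Cdc45 (-0.086 to 0.16), Rfc2 (-0.17 to 0.083), Rrm1 (-0.035 to 0.21), Uhrf1 (-0.065 to 0.12) and Ccne1 (-0.048 to 0.14). In all, 338 of 357 values of named members kept their sign and side. The cause was not tested. With 4 libraries a subset, the interval of the difference stayed within 1.5-fold in either direction for 45 of the 57 members. Smaller differences that lie inside a member's interval remain possible.

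The labels number the libraries 1 to 4 in both subsets and do not say that a number marks a shared mouse or day. Deviations of same-numbered libraries correlated at 0.079 to 0.192 over genes and other pairs at -0.132 to 0.034, and all 8 libraries correlated best with their own number, which is a hint from the data and not from the design. With the replicate block 13 genes were called, 11 higher and 2 lower, and 0 members, and Pola1 and Rrm2 remained the members at an unadjusted p under 0.05.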

Other observations

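The libraries' numbers carried more of the spread in the replication genes than in genes at large. For each gene the variance within subsets was split into a part between the 4 numbers and a part within them. Without any link between same-numbered libraries, these parts would be about equal on average. The medians of all tested genes and of the G2 and mitosis genes given next lie somewhat above that level. The part between numbers had a median of 73.3% over the 57 replication genes, 62.7% over the 78 other pathway genes, 54.0% over the 46 G2 and mitosis genes and 57.7% over all 10073 tested genes. It was over 80% for 20 of the 57 (35.1%), beside 19.9% of all tested genes. Pcna had the highest share, at 98.8%, followed by Gmnn (96.3%), Rfc5 (93.7%) and Mcm3 (93.7%). This split was made after seeing the data. These shares are a description of 4 numbers in 8 libraries, with no test, and genes within a library are not independent.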
